A study of Mus musculus with 24 samples.

Results

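Mammary glands of mice with an inducible aromatase transgene were compared at 20 months and at 18 months of age. The comparison used 6 of the 24 libraries of the series, chosen by their labels: the 3 libraries of the CYP19A1 line at 20 months and the 3 libraries of the same line at 18 months. All 6 samples had the genotype MMTV-rtTA/tet-op-CYP19A1, in which an activator under the MMTV promoter switches on CYP19A1 through a tet operator when the transgene is induced. The 20-month mice had 8 months of induction and received neither tamoxifen nor letrozole, and the 18-month mice had 6 months of induction. Age and length of induction therefore cannot be told apart, and no mouse without a transgene was among the samples. The 20-month libraries carry a tag, PLA, that the labels do not explain. The column names of the 18-month libraries hold a tag, Doxy, that those of the 20-month libraries lack. Each group holds 3 numbered biological replicates per the labels. The remaining 18 libraries were the same line with tamoxifen or letrozole at 20 months and an Esr1 line under 4 matching conditions.

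Aromatase, the product of CYP19A1, converts androgens to oestrogens. In the mammary gland, oestrogen and progesterone act on a subset of luminal cells that carry their receptors, and these cells pass the signal to their neighbours through secreted factors such as RANKL (Tnfsf11), amphiregulin and Wnt ligands. Alveolar luminal cells make milk proteins, basal cells contract, and the epithelium lies in a fat pad with vessels, nerves, immune cells and, at its edge, body wall muscle.

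Libraries were made from total RNA after ribosomal RNA depletion, and expression is given as TPM, a share of all transcripts scaled for gene length. A gene was tested when it reached 1 TPM in at least 3 of the 24 libraries, which left 19325 genes. Of all 55487 genes of the deposited table, tested or not, between 16109 and 17684 reached 1 TPM in each of the 6 libraries. Differences are 20 months minus 18 months on the log2(TPM + 1) scale with their standard error (SE), and a gene was called when its Benjamini-Hochberg adjusted p in limma was under 0.05. Markers of the labelled tissue were present in all 6 libraries. The luminal keratin Krt8 had 77.2, 89.7 and 58.5 TPM at 20 months and 146, 130.5 and 75.4 TPM at 18 months, and the basal keratin Krt14 had 19.0, 19.3 and 11.4 TPM at 20 months and 34.3, 21.3 and 24.5 TPM at 18 months. Mouse Cyp19a1 lay between 0 and 0.07 TPM at 20 months and between 0.01 and 0.27 TPM at 18 months, too low to test. It is not the transgene, whose human transcript was not analysed here, so these values check no label.

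At 20 months 581 genes were higher and 1246 were lower, which is 3.01% and 6.45% of the genes tested. The median difference over all genes tested was -0.23, so the deposited scale itself was shifted towards lower values at 20 months. With median-ratio scaling, which sets the median gene equal between libraries, that median was -0.02, and 1374 genes (7.11%) were higher and 386 (2%) lower. The difference under that scaling is given after the letters MR beside the difference on the deposited scale, whose adjusted p follows. The libraries differed in makeup: mitochondrial ribosomal RNA took 18.27, 18.77 and 24.40% of the TPM at 20 months, against 12.01, 14.68 and 15.46% at 18 months. Calls also depended on single libraries. Without 20-month replicate 3, 2 genes were higher and 0 lower by limma, while 3614 genes had an unadjusted p under 0.05 and the median difference was -0.21. With median-ratio scaling, a setting added after the data were seen, the same omission left 553 higher and 48 lower, against 1374 and 386. On the deposited scale, without 20-month replicate 1 the counts were 361 and 802, and without 20-month replicate 2 they were 323 and 273. Among the 18-month libraries, leaving out replicate 1 gave 100 higher and 26 lower, replicate 2 gave 438 and 316, and replicate 3 gave 320 and 1963. Over all genes and all 6 libraries, 1111 genes (5.75%) were higher and 4555 (23.6%) lower at an unadjusted p under 0.05, the background for such counts below.

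Skeletal muscle genes made up most of what was higher at 20 months. In bulk tissue, fewer cells of a type and less RNA per cell cannot be told apart, and this holds for every cell type marker here. Acta1, the skeletal muscle actin, had 4485, 3962 and 7085 TPM at 20 months, against 853, 1541 and 6.51 TPM at 18 months. The groups did not overlap, and the 18-month libraries were spread from nearly no Acta1 in replicate 3 to 1541 TPM in replicate 2. The log2 difference was 4.55 ± 1.5 (MR 4.80, limma adjusted p = 0.0613). The same spread applied to the muscle score, the mean log2(TPM + 1) of 15 sarcomere genes, which was 9.51, 9.31 and 10.09 at 20 months, against 7.13, 7.80 and 1.95 at 18 months. All 15 had every 20-month library above every 18-month library, as had 7.48% of the genes tested, and 6 were called, with a list median of 4.06 against -0.23 for all genes. Those 6 were the Z-disc proteins Actn2 and Ldb3, the intermediate filament gene Des, the thick filament protein Mybpc1, tropomyosin Tpm1 and the light chain Myl1. With median-ratio scaling 14 of 15 were called. Leaving out single libraries gave 0 called without 20-month replicate 2, 20-month replicate 3, 18-month replicate 1 or 18-month replicate 3. It gave 1 called when 20-month replicate 1 was left out, and 14 called when 18-month replicate 2 was. The median was 2.17 without 18-month replicate 3 and between 3.86 and 5.09 in the other 5 omissions.

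Lists of fast and slow fibre genes had the same direction. Among 13 fast fibre genes, 2 were higher, Myh1 and Myl1, and the median was 4.39. Myh1, a fast myosin heavy chain, had 537, 393 and 890.0 TPM at 20 months, against 70.2, 162 and 0.24 TPM at 18 months. The fast myosin with the highest level, Myh4, had 2858, 1957 and 3653 TPM at 20 months and 558, 755 and 1.93 TPM at 18 months, and did not pass (limma adjusted p = 0.0731). Slow fibre genes had a smaller median of 1.63, and 1 of 8 was higher. That gene was Tnnt1, slow troponin T, with 23.8, 22.9 and 48.7 TPM at 20 months, against 0.91, 15.1 and 0.15 TPM at 18 months (log2 difference 3.23 ± 0.91, MR 3.38, limma adjusted p = 0.0362). Slow fibre levels also varied within the 18-month group, as the slow myosin Myh7 shows, with 5.64, 6.07 and 29.2 TPM at 20 months, against 0.01, 15.7 and 0.16 TPM at 18 months. For Myh7, 18-month replicate 2 lay within the range of the 20-month libraries, while for Acta1 it lay below them.

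Of 12 genes of excitation and calcium release 10 were higher. Sln, sarcolipin, which inhibits the calcium pump, had 10.6, 10.3 and 13.1 TPM at 20 months, against 2.16, 0.51 and 0 TPM at 18 months. Its libraries did not overlap, and it changed by 2.87 ± 0.51 (MR 3.00, limma adjusted p = 0.0105). Jph1, which couples the surface membrane to the calcium store, had 22.2, 19.4 and 29.7 TPM at 20 months, against 5.28, 6.02 and 1.04 TPM at 18 months, a change of 2.44 ± 0.53 (MR 2.65, limma adjusted p = 0.0155). The calcium release channel Ryr1 had a log2 difference of 3.32 ± 1.09 and did not pass (MR 3.54, limma adjusted p = 0.06). Leaving out each library gave 0 to 10 members higher, the 0 without 20-month replicate 3 and 2 without 18-month replicate 1 or 3.

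Of 12 genes of muscle energy supply 8 were higher. Mb, the oxygen-binding myoglobin, had 309.8, 297 and 551 TPM at 20 months, against 23.1, 119 and 1.25 TPM at 18 months. Replicate 1 and replicate 3 at 18 months had little of it, and no 18-month library reached the lowest 20-month one. Without 18-month replicate 3 the difference of Mb was 2.79 (limma adjusted p = 0.0702). Leaving out each library gave 0 to 10 members of this list higher, the 0 without 20-month replicate 3 and 1 without 18-month replicate 1. Ckmt2, the mitochondrial creatine kinase of muscle, changed by 3.64 ± 1.09 (MR 3.85, limma adjusted p = 0.044), and Fbp2, the muscle fructose bisphosphatase, by 2.92 ± 0.61 (MR 3.12, limma adjusted p = 0.0149). The cytosolic creatine kinase Ckm had 3472, 3220.5 and 5344 TPM at 20 months, against 671, 1121 and 2.52 TPM at 18 months, and it did not pass (limma adjusted p = 0.0635).

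Of 10 listed regulators of muscle 7 were tested and 3 were higher. Myf6, a myogenic transcription factor of mature fibres, had 14.9, 13.2 and 24.5 TPM at 20 months, against 2.89, 5.17 and 0 TPM at 18 months, a change of 2.63 ± 0.60 (MR 2.80, limma adjusted p = 0.018). Outside that list, Mstn, myostatin, a secreted inhibitor of muscle growth, had 117, 89.5 and 116 TPM at 20 months, against 24.1, 2.36 and 0.17 TPM at 18 months. Its 20-month libraries were within a narrow range, and the 18-month libraries ran from 0.17 to 24.1 TPM, a change of 4.54 ± 1.03 (MR 4.74, limma adjusted p = 0.018). Musk, the receptor kinase of the neuromuscular junction, and dystrophin (Dmd) were also higher, by 1.44 ± 0.29 and 1.20 ± 0.34 (MR 1.52 and 1.45, limma adjusted p = 0.0141 and 0.0349). The satellite cell genes Pax7 and Myf5 were too low to test. Other muscle genes among the largest rises were Apobec2, Smpx, Csrp3, Klhl41, Nrap and Myot, with log2 differences between 3.64 and 4.10; Csrp3 and Myot encode Z-disc proteins and Nrap takes part in myofibril assembly.

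**Figure D1:**
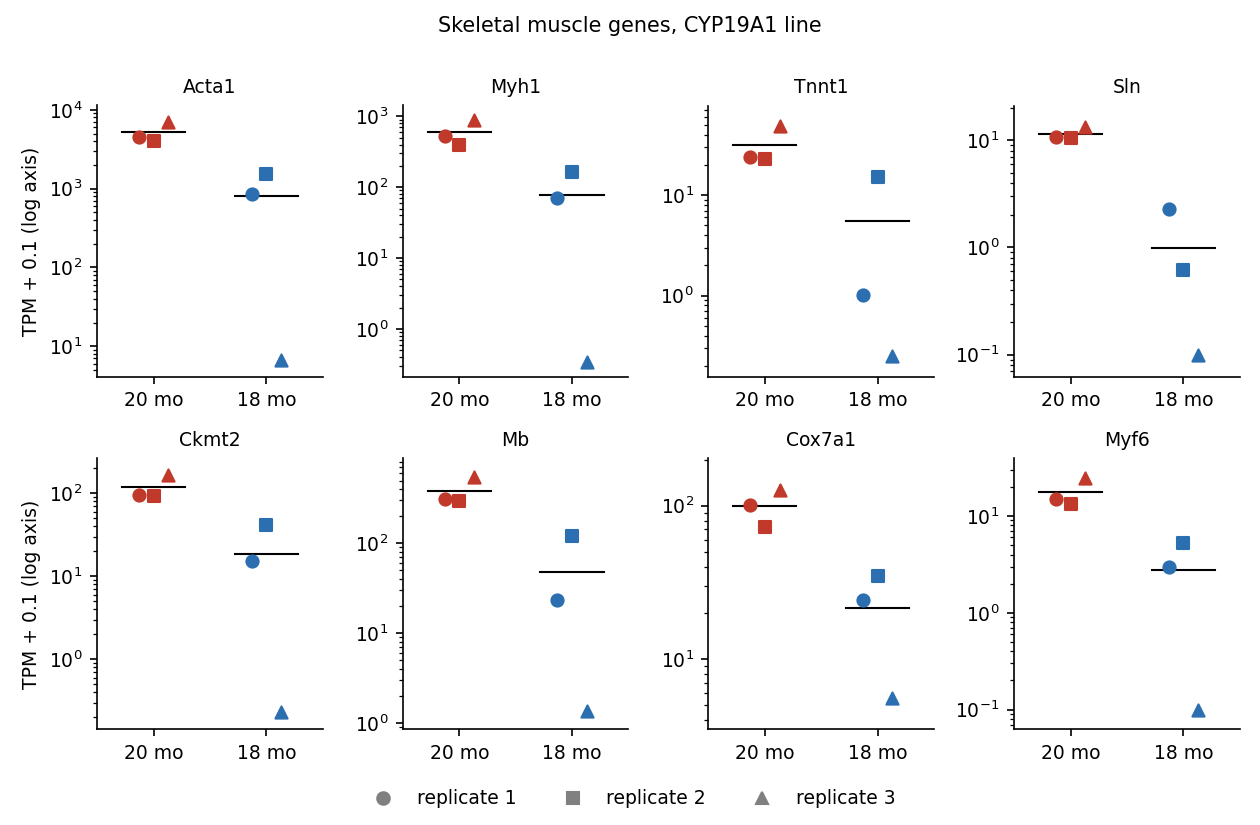
Expression of 8 skeletal muscle genes as TPM + 0.1 on a log axis at 20 months (red, left) and 18 months (blue, right). Each point is 1 library, marked by replicate number, and the line is the mean of 3; for Acta1 all 20-month points lie above all 18-month points and 18-month replicate 3 is at 6.51 TPM.

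To separate muscle content from other changes, each gene was given a Pearson correlation with the muscle score over the 18 libraries outside the comparison, as a description of genes that share library composition. A gene with r of at least 0.8 was called muscle-linked, which held for 536 of the 19325 genes (2.77%). Of the 581 higher genes 361 were muscle-linked (62.1%), and of the 1246 lower genes 0 were. In 1009 of the 1246 lower genes, 18-month replicate 3, the library with the lowest muscle score, was also the lowest of its age. The same count was not made over all genes tested, so it shows no link to muscle content. The median r was 0.85 among the higher genes and -0.36 among the lower genes. Without 18-month replicate 1 of the Esr1 line, 955 genes were muscle-linked (4.94%), among them 419 of the 581 higher genes (72.1%). That left 220 higher genes, or 162 without that library, that were not muscle-linked.

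A second fit took the muscle score as a covariate. It left 156 genes higher (0.807% of those tested) and 4529 lower (23.4%), and with median-ratio scaling as well it left 219 higher (1.13%) and 244 lower (1.26%). Of the 220 higher genes that were not muscle-linked, 63 were higher with the covariate and 72 with the covariate and median-ratio scaling. Of the 1246 lower genes, 1180 were lower with the covariate, 383 with median-ratio scaling and 186 with both. In both fits with the covariate 101 genes were higher and all 244 lower genes of the second were lower. The covariate fit also depended on single libraries: without 18-month replicate 1 it gave 18 higher and 1164 lower, and without 20-month replicate 3 it gave 52 and 2723.

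**Figure D2:**
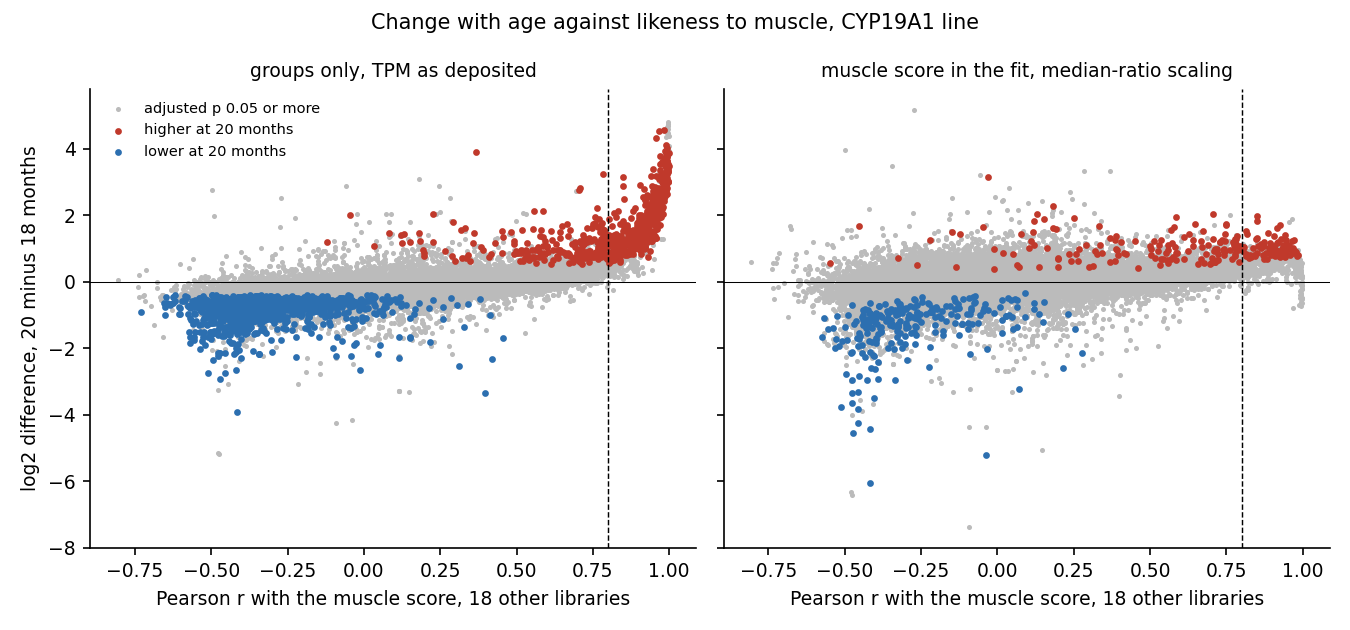
Difference between 20 and 18 months on the log2 scale against Pearson r with the muscle score over 18 other libraries, 1 point per gene tested. On the left, from the groups alone, the red points (581 genes higher at 20 months) gather at the right of the dashed line at r = 0.8 and the blue points (1246 lower) lie at its left; on the right, with the muscle score in the fit and median-ratio scaling, 219 are red and 244 are blue.

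Several genes stayed higher with the muscle score as a covariate. That score was 1.95 in 18-month replicate 3, 3.30 in 18-month replicate 1 of the Esr1 line, and 7.13 or more in every other library. Whether the covariate removes all of the muscle content was not tested. Hspb2, a small heat shock protein of muscle and heart, had 16.1, 13.9 and 17.4 TPM at 20 months, against 4.91, 5.70 and 3.22 TPM at 18 months. Its groups were far apart, it changed by 1.61 ± 0.24 (MR 1.83, limma adjusted p = 0.00857), and with the covariate and median-ratio scaling by 1.43 ± 0.20 (limma adjusted p = 0.00734). Its r with the muscle score was 0.75. A related gene, Hspb7, had 18.5, 16.9 and 31.8 TPM at 20 months, against 2.91, 6.27 and 0.33 TPM at 18 months, and changed by 2.05 ± 0.41 in that fit (limma adjusted p = 0.0262). Sln, Fbp2, Jph1 and Myf6 of the muscle lists also kept their calls there, with 1.82, 1.36, 1.09 and 0.92. The sarcomere genes make up the score, so that fit does not test them.

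Aldh1a1, which makes retinoic acid from retinal, was among the genes with little likeness to muscle, with r = 0.13. It had 37.1, 32.7 and 47.7 TPM at 20 months, against 10.9, 18.9 and 12.1 TPM at 18 months. No library overlapped, and it changed by 1.45 ± 0.39 (MR 1.69, limma adjusted p = 0.0301) and by 2.04 ± 0.51 with the covariate and median-ratio scaling (limma adjusted p = 0.0441). Nrxn3, a synaptic adhesion protein, had 4.70, 5.78 and 11.4 TPM at 20 months, against 0.97, 0.70 and 4.68 TPM at 18 months, so its 18-month replicate 3 came close to the lowest 20-month library. It passed on the deposited scale (limma adjusted p = 0.035) and with the covariate (limma adjusted p = 0.0287), but not with covariate and median-ratio scaling (limma adjusted p = 0.0537). Ctxn3 and Lrrc14b, both muscle-linked with r = 0.85 and 0.92, kept calls in that fit, with 1.97 and 1.62 (limma adjusted p = 0.0216 and 0.0283).

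Most T and NK cell genes tested were lower at 20 months. Of 25 listed 22 were tested, and of these 16 were lower and 0 higher, with a median of -1.03, and 21 of the 22 had every 20-month library below every 18-month library, as had 33.8% of all genes tested. Their summed level was 39.2, 31.8 and 23.8 TPM at 20 months, against 153, 71.5 and 72.4 TPM at 18 months. With median-ratio scaling 15 were lower, with the muscle covariate 19, and with both 6. Over all genes tested the shares lower in these fits were 2%, 23.4% and 1.26%. Without 20-month replicate 3 no member was called on the deposited scale and 4 were with median-ratio scaling. Without 18-month replicate 1, 2 were lower, Cd8b1 and Ccl5, and leaving out 20-month replicate 2 gave 9. The other omissions gave 12 to 17, and the median lay between -0.75 and -1.19 over all 6.

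The T cell receptor complex and its signalling proteins were among them. Cd3d, a chain of the complex, had 0.99, 0.86 and 0.91 TPM at 20 months, against 4.87, 2.23 and 2.61 TPM at 18 months. The 3 libraries at 20 months lay close together and below 1 TPM, and the change was -1.09 ± 0.24 (MR -0.90, limma adjusted p = 0.0149). The CD8 chain Cd8a had 2.38, 1.66 and 0.51 TPM at 20 months, against 11.1, 4.76 and 4.08 TPM at 18 months, a change of -1.57 ± 0.38 (MR -1.36, limma adjusted p = 0.0201). Cd4 changed by -1.04 ± 0.27 (MR -0.87, limma adjusted p = 0.0256), and with Cd8a both co-receptors were lower. Zap70, a kinase downstream of the receptor, changed by -0.99 ± 0.23 (MR -0.83, limma adjusted p = 0.0172).

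Some effector genes of cytotoxic cells were lower as well. Nkg7, a granule membrane protein, had 2.17, 1.23 and 1.28 TPM at 20 months, against 9.01, 5.48 and 3.40 TPM at 18 months. It was highest in 18-month replicate 1, and it changed by -1.38 ± 0.31 (MR -1.17, limma adjusted p = 0.0153). Ccl5, a chemokine that attracts T cells, had 4.52, 2.48 and 2.28 TPM at 20 months, against 27.7, 9.87 and 11.8 TPM at 18 months, and all 3 libraries at 20 months were below the others. The granzyme gene Gzma had 1.44, 0.89 and 0.60 TPM at 20 months, against 6.18, 2.33 and 1.87 TPM at 18 months, and did not pass (limma adjusted p = 0.0632). Cxcl9, an interferon-gamma-induced chemokine for T cells, had 1.89, 3.18 and 2.49 TPM at 20 months, against 14.2, 6.39 and 8.03 TPM at 18 months, a change of -1.53 ± 0.37 (MR -1.29, limma adjusted p = 0.0208). Among 16 interferon-stimulated genes Cxcl9 was the 1 called on the deposited scale, and 8 were lower and 0 higher at an unadjusted p under 0.05.

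Other immune cell markers gave few calls on the deposited scale. Of 9 B cell genes 0 were called by limma in either direction, 0 had an unadjusted p under 0.05, and the median was -0.05. Cd79b, a chain of the B cell receptor complex, had 1.86, 2.39 and 2.92 TPM at 20 months, against 1.99, 1.72 and 2.24 TPM at 18 months, with overlapping groups (log2 difference 0.18 ± 0.45, MR 0.35, limma adjusted p = 0.816). Of 16 macrophage genes 1 was lower, the chemokine receptor Cx3cr1, and the receptor Csf1r had 35.0, 26.2 and 21.2 TPM at 20 months, against 35.3, 30.0 and 31.9 TPM at 18 months (limma adjusted p = 0.58). Of 11 genes of dendritic cells and MHC class II 1 was lower, H2-DMb1, with 5 lower and 0 higher at an unadjusted p under 0.05. Of 8 neutrophil and mast cell genes 0 were called by limma, with 3 higher at an unadjusted p under 0.05. With median-ratio scaling 3 of these 8 were higher, Cpa3, Tpsb2 and Ms4a2, against 7.11% of all genes tested. Immunoglobulin A heavy chain (Igha) was lower, with 100.1, 92.9 and 49.4 TPM at 20 months, against 383, 268 and 353 TPM at 18 months (log2 difference -2.09 ± 0.64, MR -1.82, limma adjusted p = 0.0468), and it was the 1 of 13 plasma cell genes called. Igha did not pass with median-ratio scaling (limma adjusted p = 0.0603).

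Lymph node stromal and follicle markers were low throughout, and their summed level was 12.3, 10.7 and 12.8 TPM at 20 months, against 20.1, 15.7 and 13.8 TPM at 18 months. Of 10 listed 6 were tested and 2 were lower. They were Madcam1, an adhesion protein for lymphocyte homing, with 1.28, 0.69 and 0.59 TPM at 20 months, against 5.15, 7.87 and 1.73 TPM at 18 months, and lymphotoxin beta (Ltb), with 2.02, 2.18 and 1.47 TPM at 20 months, against 6.75, 3.75 and 3.79 TPM at 18 months (limma adjusted p = 0.0184 and 0.0282). Cxcl13, the follicle chemokine, had 3.92, 3.76 and 5.85 TPM at 20 months, against 1.09, 0.70 and 2.16 TPM at 18 months, and did not pass (limma adjusted p = 0.314). With the score of this list as a covariate, 858 genes were higher and 1329 lower, and 16 of 22 members of the T and NK cell list were lower. The part of node tissue in the T cell result was not tested.

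Most genes of DNA replication tested were lower at 20 months. Of 22, 15 were lower and 0 higher, with a median of -0.87, against 6.45% lower and -0.23 over all genes tested. Genes of mitosis and G2 had 11 of 22 lower and 0 higher, with a median of -0.86. Promoter sequences are shown for 4 of these genes because members of both lists fell, and the members of each list are known to share promoter elements. The gene starts and sequences are from RefSeq, build GRCm38.p6, the first start listed for each gene. Each run is the 120 bases just before the start, 5′ to 3′ on the gene's own strand, with capitals for the CCAAT box (CCAAT or ATTGG), the CHR element (TTTGAA or TTCAAA) and an E2F core (GCGGGAA or TTCCCGC). Mcm3, a subunit of the replicative helicase, is at chr1:20820313-20820432 (minus strand). Uhrf1, which carries DNA methylation through replication, is at chr17:56303217-56303336 (plus strand). The mitotic kinases Plk1 and Cdk1 are at chr7:122159315-122159434 (plus strand) and chr10:69352913-69353032 (minus strand).
Mcm3: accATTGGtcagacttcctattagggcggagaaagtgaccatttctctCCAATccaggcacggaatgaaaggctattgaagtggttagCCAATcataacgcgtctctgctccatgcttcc
Uhrf1: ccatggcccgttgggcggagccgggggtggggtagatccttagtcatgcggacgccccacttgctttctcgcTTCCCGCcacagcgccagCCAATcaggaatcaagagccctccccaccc
Plk1: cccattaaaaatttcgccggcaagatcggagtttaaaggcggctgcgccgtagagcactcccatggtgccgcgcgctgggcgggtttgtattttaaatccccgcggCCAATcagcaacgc
Cdk1: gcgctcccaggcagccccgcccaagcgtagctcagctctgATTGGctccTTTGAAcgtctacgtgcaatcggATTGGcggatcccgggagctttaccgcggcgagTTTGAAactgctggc
In the 250 bases before the start, searched on both strands, a CCAAT box was found in 11 of 18 replication promoters (61.1%), 15 of 18 mitosis promoters (83.3%) and 36.0% of the promoters of genes tested. A CHR element was found in 2 of 18 (11.1%), 7 of 18 (38.9%) and 11.1%, and an E2F core in 5 of 18 (27.8%), 0 of 18 and 6.58%. Over all 27025 mouse promoters the shares were 34.5%, 16.3% and 3.84%. None of the 3 motifs contains another. A match describes letters only and is not a site of binding.

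The 4 genes with sequences shown had separate groups. Mcm3 had 3.47, 3.36 and 2.7 TPM at 20 months, against 14.1, 6.25 and 4.66 TPM at 18 months, a change of -1.03 ± 0.25 (MR -0.80, limma adjusted p = 0.0201). Uhrf1 had 2.63, 1.3 and 1.15 TPM at 20 months, against 14.8, 6.14 and 2.67 TPM at 18 months, a change of -1.51 ± 0.33 (MR -1.29, limma adjusted p = 0.0149). In both, 18-month replicate 1 was highest and 18-month replicate 3 was the nearest to the 20-month libraries. Plk1, at lower levels, had 0.45, 0.41 and 0.32 TPM at 20 months, against 1.91, 1.82 and 1.03 TPM at 18 months, a change of -0.88 ± 0.22 (MR -0.73, limma adjusted p = 0.0219). Cdk1 had 2.50, 1.79 and 1.5 TPM at 20 months, against 7.85, 5.86 and 2.68 TPM at 18 months, a change of -1.06 ± 0.30 (MR -0.85, limma adjusted p = 0.0351).

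Licensing factors and enzymes of nucleotide supply were lower with them. Cdc6, which loads the helicase, fell by 1.00 on the log2 scale, with 0.52, 0.59 and 0.30 TPM at 20 months, against 2.58, 1.85 and 1.49 TPM at 18 months (limma adjusted p = 0.00971). Pcna, the polymerase clamp, had 21.2, 20.3 and 17.1 TPM at 20 months, against 54.8, 30.3 and 29.4 TPM at 18 months, a change of -0.88 ± 0.19 (MR -0.62, limma adjusted p = 0.0149). The ribonucleotide reductase subunit Rrm2 and thymidylate synthase (Tyms) changed by -0.97 ± 0.26 and -0.91 ± 0.25 (limma adjusted p = 0.0292 and 0.032). The cyclin genes Ccne1 and Ccne2, which act at entry to S phase, had log2 differences of -0.22 and 0.02 and did not pass (limma adjusted p = 0.503 and 0.956).

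Among mitotic genes, the proliferation marker Mki67 had 2.62, 2.55 and 1.40 TPM at 20 months, against 9.06, 9.53 and 3.61 TPM at 18 months, a change of -1.33 ± 0.40 (MR -1.11, limma adjusted p = 0.0431). Ccna2, cyclin A2, had 1.47, 2.20 and 1.44 TPM at 20 months, against 6.10, 5.55 and 2.49 TPM at 18 months, and Birc5, survivin, had 1.19, 0.55 and 0.52 TPM at 20 months, against 3.86, 3.50 and 1.82 TPM at 18 months. Both were lower in every 20-month library than in any 18-month library, with limma adjusted p = 0.0367 and 0.0188. Ube2c, which helps degrade cyclins, had 4.85, 3.83 and 4.48 TPM at 20 months, against 4.48, 5.63 and 2.52 TPM at 18 months, and did not pass (limma adjusted p = 0.83).

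Counts in these lists varied with the scale. With median-ratio scaling 11 replication and 4 mitosis genes were lower, against 2% of all genes tested. The muscle covariate gave 19 lower in each list, against 23.4% of all genes. Both settings together gave 6 and 5, against 1.26%. Without 20-month replicate 3 no member of either list was called, and without 18-month replicate 1 the counts were 1 and 0. Mitosis genes had 0 called also without 20-month replicate 2 or 18-month replicate 2, where replication genes had 7 and 8. The counts were 11 and 7 without 20-month replicate 1 and 15 and 16 without 18-month replicate 3. Ccnd1, cyclin D1, an oestrogen-responsive driver of the cell cycle, had 17, 18.9 and 13.2 TPM at 20 months, against 54.2, 37.9 and 22.3 TPM at 18 months, a change of -1.10 ± 0.31 (MR -0.84, limma adjusted p = 0.0345), which did not pass with median-ratio scaling (limma adjusted p = 0.0564). Other genes of dividing cells, named for their small p in the contrast with the Esr1 line, were Hells, Chaf1b and Tcf19, with changes of -1.33, -1.22 and -1.10 here (limma adjusted p = 0.0149, 0.0143 and 0.00971).

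**Figure D3:**
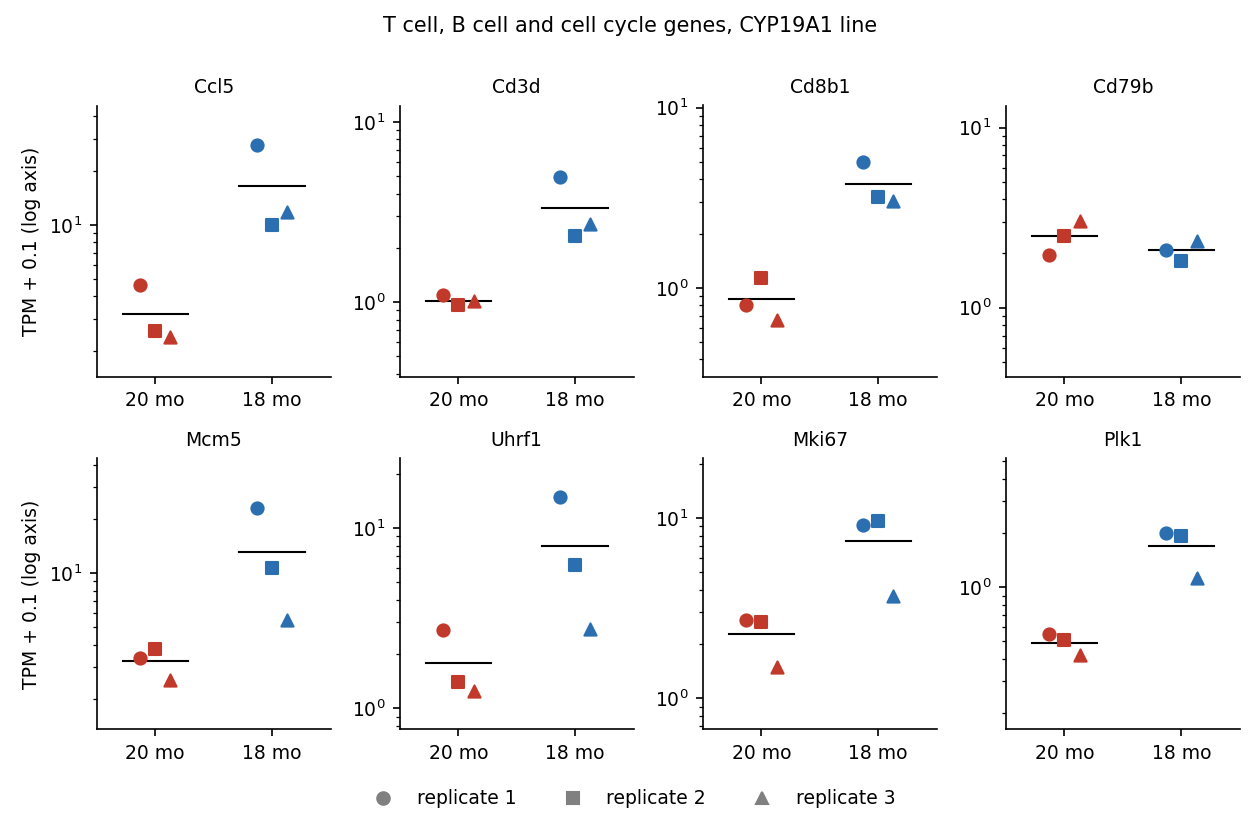
T cell genes (Ccl5, Cd3d, Cd8b1), a B cell gene (Cd79b), replication genes (Mcm5, Uhrf1) and mitotic genes (Mki67, Plk1) as TPM + 0.1 on a log axis, at 20 months (red, left) and 18 months (blue, right), 1 point per library and a line at the mean of 3. Points of the 2 ages are separate in every panel but Cd79b, and for the cell cycle genes 18-month replicate 3 is the lowest of its group.

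Calcitonin and RANKL, products of the hormone-sensing cells, were lower at 20 months, while the hormone receptors were not called. Calca (chr7:114625981-114636910 in GRCm38.p6), which encodes calcitonin and its related peptide and responds to progesterone in the mammary gland, had 0.46, 0.31 and 0.99 TPM at 20 months, against 98.2, 62.9 and 1.12 TPM at 18 months. Replicate 3 at 18 months was just above the highest 20-month library, while replicate 1 and replicate 2 were far above all others, and the change was -3.93 ± 0.96 (MR -3.72, limma adjusted p = 0.0223). Tnfsf11 (chr14:78277446-78308043), RANKL, the progesterone-induced signal to neighbouring cells, had 0.02, 0.03 and 0.04 TPM at 20 months, against 11.6, 7.09 and 0.28 TPM at 18 months. It was near 0 in all 3 libraries at 20 months and changed by -2.30 ± 0.56 (MR -2.13, limma adjusted p = 0.0219). Rspo1, an R-spondin that amplifies Wnt signals, was also high in replicates 1 and 2 at 18 months, with 3.56, 2.68 and 1.64 TPM at 20 months, against 48.1, 30.6 and 2.11 TPM at 18 months. Its groups overlapped and it did not pass (log2 difference -2.26 ± 0.75, MR -2.03, limma adjusted p = 0.0642).

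With the muscle covariate and median-ratio scaling these differences were larger, at -6.07 ± 0.87 for Calca, -3.50 ± 0.51 for Tnfsf11 and -3.64 ± 0.79 for Rspo1 (limma adjusted p = 0.00783, 0.00783 and 0.0335). The 18-month library with the least muscle RNA, replicate 3, was also the lowest of its group for all 3 genes. Without it, Calca differed by -5.67 and Tnfsf11 by -3.29 on the deposited scale, at limma adjusted p = 0.000137 and 0.000188. Without 18-month replicate 1 these were -2.90 and -1.64 and did not pass (limma adjusted p = 0.12 and 0.118). Calca and Tnfsf11 also lost their calls without 18-month replicate 2, 20-month replicate 2 or 20-month replicate 3, with limma adjusted p between 0.0569 and 0.119. Adamts18, a protease that remodels the matrix around the epithelium, had 1.38, 1.71 and 1.06 TPM at 20 months, against 6.18, 4.37 and 2.39 TPM at 18 months, a change of -1.10 ± 0.30 (MR -0.89, limma adjusted p = 0.0302). Of 19 genes responsive to oestrogen or progesterone 5 were lower and 0 higher, against 6.45% lower over all genes tested. The 5 were Calca, Tnfsf11, Ccnd1, Adamts18 and Susd3.

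Receptors of the hormone-sensing cells were not called. Esr1, oestrogen receptor alpha, had 19.2, 13.3 and 19.1 TPM at 20 months, against 13.2, 12.2 and 17.7 TPM at 18 months, with overlapping groups and a difference of 0.24 ± 0.21 (MR 0.49, limma adjusted p = 0.448). Pgr, the progesterone receptor, had 8.30, 12.3 and 12.4 TPM at 20 months, against 7.27, 3.26 and 11.6 TPM at 18 months, a difference of 0.63 ± 0.39 (MR 0.86, limma adjusted p = 0.292). Prlr and Foxa1, the prolactin receptor and a pioneer factor for the oestrogen receptor, did not pass (limma adjusted p = 0.684 and 0.4). Prom1, a membrane protein used to mark these cells, was higher, with 7.39, 8.36 and 8.64 TPM at 20 months, against 2.64, 2.16 and 7.40 TPM at 18 months, a change of 0.99 ± 0.31 (MR 1.19, limma adjusted p = 0.0478). Here too 18-month replicate 3 lay next to the 20-month libraries, and Prom1 kept its call in 1 of the 6 leave-outs, the one without that library (limma adjusted p = 0.00521). Of 16 hormone-sensing genes 1 was higher and 2 lower on the deposited scale, with median-ratio scaling and with the covariate.

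Ligands of the EGF family divided. Areg, amphiregulin, which carries the oestrogen signal to the stroma, had 9.59, 26.2 and 19.5 TPM at 20 months, against 16.9, 4.50 and 16.9 TPM at 18 months, with overlapping groups (limma adjusted p = 0.525). Nrg1, neuregulin 1, was lower with 0.56, 0.72 and 0.48 TPM at 20 months, against 2.76, 3.25 and 1.57 TPM at 18 months, a change of -1.12 ± 0.28 (MR -0.95, limma adjusted p = 0.0221). Egf was higher with 6.87, 7.45 and 9.59 TPM at 20 months, against 2.11, 2.89 and 1.83 TPM at 18 months, a change of 1.45 ± 0.33 (MR 1.64, limma adjusted p = 0.0173), and its r with the muscle score was 0.93. Of 14 listed Wnt and R-spondin genes 8 were tested and 0 were called by limma on the deposited scale, with 2 higher and 2 lower at an unadjusted p under 0.05. With median-ratio scaling Wnt2 was higher, and with the covariate added Wnt11 was higher and Rspo1 lower. Of 14 enzymes that make or inactivate oestrogens 7 were tested and 0 were called by limma or at an unadjusted p under 0.05.

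**Figure D4:**
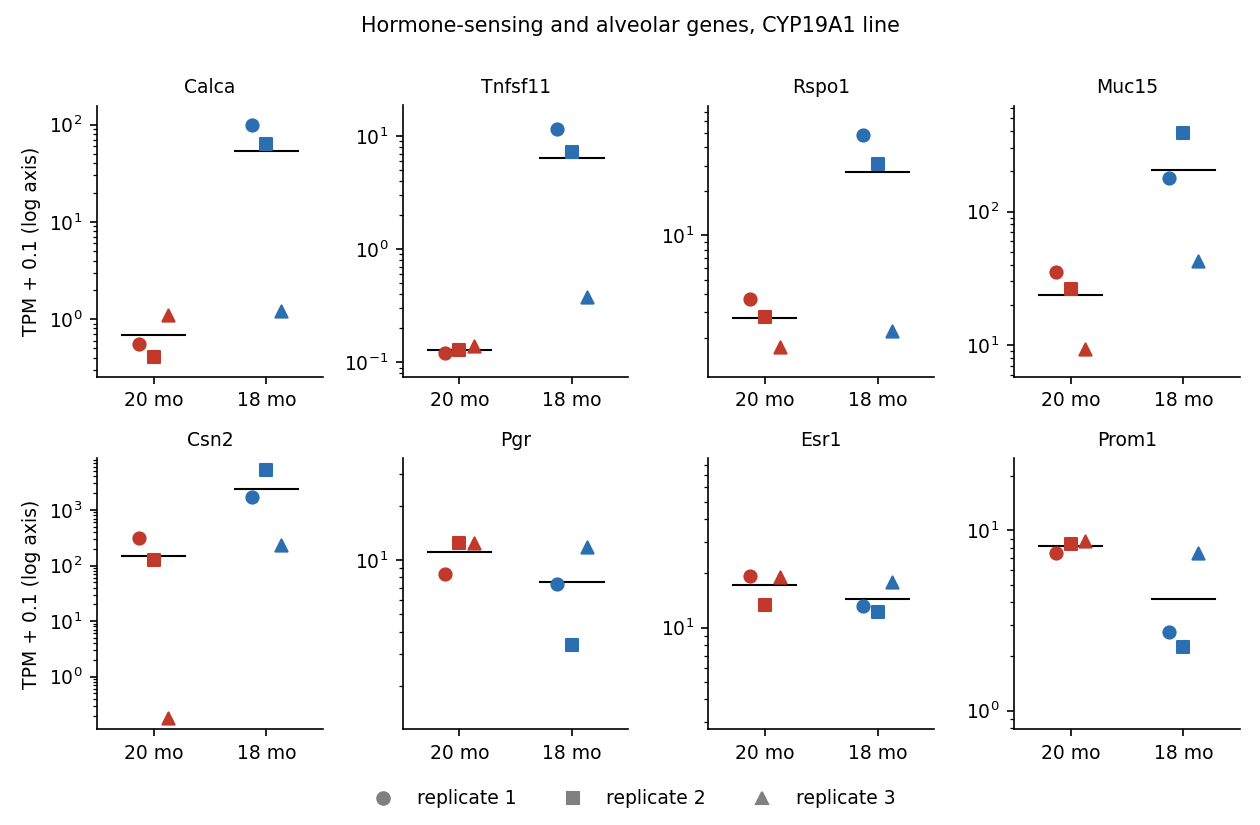
Hormone-sensing and alveolar genes as TPM + 0.1 on a log axis at 20 months (red, left) and 18 months (blue, right), 1 point per library and a line at the mean of 3. Calca and Tnfsf11 are high in 18-month replicates 1 and 2 and low in the other 4 libraries, while Esr1 and Pgr overlap between the ages.

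Milk protein and alveolar genes had low medians with a wide spread. Of 20 tested, 4 were lower and 0 higher, with a median of -1.92, against 6.45% lower and -0.23 over all genes tested. Csn2, beta-casein, had 309, 127 and 0.08 TPM at 20 months, against 1712, 5296 and 231 TPM at 18 months. The difference of -5.20 had an SE of 2.12 and did not pass (limma adjusted p = 0.116), and 20-month replicate 3 had almost none. Summed over the list, the level was 3042, 2065 and 654 TPM at 20 months, against 8793, 22710 and 3589 TPM at 18 months.

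The 4 genes that passed were Muc15, Folr1, Btn1a1 and Trf. Muc15, a membrane mucin, had 35.0, 26.1 and 9.19 TPM at 20 months, against 178, 389 and 42.1 TPM at 18 months, a change of -2.75 ± 0.74 (MR -2.48, limma adjusted p = 0.03). Btn1a1, butyrophilin, a protein of the milk fat globule membrane, had 41.0, 37.8 and 10.1 TPM at 20 months, against 89.1, 158 and 92.6 TPM at 18 months, a change of -2.07 ± 0.60 (MR -1.81, limma adjusted p = 0.0405). The folate receptor Folr1 and transferrin (Trf), which is secreted into milk, changed by -2.15 ± 0.60 and -1.62 ± 0.49 (MR -1.36 for Trf, limma adjusted p = 0.0351 and 0.0428). Elf5, the transcription factor of alveolar cells, had 25.5, 20.0 and 11.2 TPM at 20 months, against 66.1, 142 and 29.0 TPM at 18 months, and did not pass (limma adjusted p = 0.0595). With median-ratio scaling 1 of the 4, Muc15, was called. Several non-list genes with the largest falls had the same order of libraries: Bcl2l15 with 0.86, 0.75 and 0.44 TPM at 20 months, against 20.7, 38.6 and 1.46 TPM at 18 months, and the connexin Gjb6 with 0.48, 0.17 and 0.02 TPM at 20 months, against 7.04, 29.6 and 0.83 TPM at 18 months (limma adjusted p = 0.0282 and 0.0444). The carbonic anhydrase Car2 had 5.75, 6.21 and 3.63 TPM at 20 months, against 34.6, 51.9 and 9.71 TPM at 18 months (limma adjusted p = 0.0283).

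General epithelial markers gave 1 call on the deposited scale. Of 16 luminal genes 0 passed in limma and 8 were lower at an unadjusted p under 0.05, with a median of -0.87. The adhesion protein Epcam had 59.4, 56.9 and 33.4 TPM at 20 months, against 119, 106 and 71.1 TPM at 18 months (limma adjusted p = 0.164). Of 13 basal and myoepithelial genes 1 was lower, P-cadherin (Cdh3), with a change of -0.73 ± 0.23 (MR -0.52, limma adjusted p = 0.0493). The muscle covariate gave 7 luminal and 6 basal genes lower, in a fit where 23.4% of all genes tested were lower. Once median-ratio scaling was added the counts were 0 and 0, against 1.26% of all genes.

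Some secretory chaperones and ribosomal proteins were lower on the deposited scale and none with median-ratio scaling. Over all genes tested 6.45% were lower on the deposited scale, with a median of -0.23. With median-ratio scaling these were 2% and -0.02. Of 18 genes of the unfolded protein response and secretory folding 8 were lower, among them Hspa5 (BiP) with 118, 97.4 and 92.8 TPM at 20 months, against 235, 236 and 114 TPM at 18 months, and Manf with 26.8, 26.3 and 21.5 TPM at 20 months, against 65.4, 62.8 and 29.2 TPM at 18 months (limma adjusted p = 0.045 and 0.0282). In both genes 18-month replicate 3 was well below the other 2 libraries of its age. Of 18 cytosolic ribosomal protein genes 5 were lower, with a median of -0.49; Rpl32 had 349, 364 and 307 TPM at 20 months, against 681, 558 and 463 TPM at 18 months (limma adjusted p = 0.0183). With median-ratio scaling 0 of both lists were called, where their medians were -0.31 and -0.23. Ribosomal protein genes have many near-identical pseudogenes, so their TPM is uncertain.

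No white fat cell gene was called. Of 15 white adipocyte genes 0 were called by limma or at an unadjusted p under 0.05, and Adipoq, adiponectin, had 534, 451 and 476 TPM at 20 months, against 515, 513 and 833 TPM at 18 months (limma adjusted p = 0.726). Their median was -0.43 on the deposited scale, -0.16 with median-ratio scaling and 0.67 with the covariate added, so its sign turned with the setting. Of 16 fatty acid synthesis genes 2 were lower, the regulator Srebf1 and the transketolase Tkt, and 0 with median-ratio scaling. Srebf1 had 79.9, 84.7 and 68.4 TPM at 20 months, against 141, 165 and 129 TPM at 18 months (limma adjusted p = 0.0443).

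Oxidative genes were higher in part. Of 21 genes of brown fat and fat oxidation 3 were higher: Cox7a1, Cpt1b and Ppara. Cpt1b, which admits fatty acids to mitochondria in muscle and brown fat, had 53.4, 49.0 and 88.7 TPM at 20 months, against 13.5, 13.1 and 2.18 TPM at 18 months, and r = 0.95 with the muscle score. Ppara, the nuclear receptor for fatty acid oxidation, had 4.61, 3.29 and 4.80 TPM at 20 months, against 1.51, 1.99 and 2.55 TPM at 18 months, a change of 0.80 ± 0.24 (MR 0.97, limma adjusted p = 0.0421), with r = 0.66. Ucp1, the uncoupling protein of brown fat, had 79.5, 8.36 and 9.99 TPM at 20 months, against 11.6, 0.10 and 0.48 TPM at 18 months, and did not pass (limma adjusted p = 0.207); 1 library at each age was far above its group. Acadl, an acyl-CoA dehydrogenase, was the 1 gene of this list higher with the covariate and median-ratio scaling, with 52.0, 51.0 and 62.4 TPM at 20 months, against 37.8, 31.0 and 51.7 TPM at 18 months, and a change of 1.11 ± 0.23 in that fit (limma adjusted p = 0.0283).

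Nuclear genes of the respiratory chain had a median of 0.43, and 1 of 23 was higher, the ATP synthase subunit Atp5g1 with r = 0.92. With median-ratio scaling 19 of 23 were higher, and 0 with the covariate in the fit. The 13 mitochondrially encoded genes had a median of 0.63 with 0 called by limma and 7 higher at an unadjusted p under 0.05, 6 higher with median-ratio scaling and 0 with the covariate. The cytochrome oxidase gene mt-Co1 had 8729, 8594 and 11732 TPM at 20 months, against 5128, 6600.4 and 6414 TPM at 18 months, with no overlap (limma adjusted p = 0.103 on the deposited scale and 0.0131 with median-ratio scaling).

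Stroma and vessels gave few calls. Of 19 collagen genes 0 and of 14 endothelial genes 0 were called by limma, with 1 higher and 1 lower at an unadjusted p under 0.05. Col1a1 had 74.7, 53.1 and 50.9 TPM at 20 months, against 54.9, 71.8 and 72.4 TPM at 18 months, and Pecam1 had 47.1, 46.0 and 50.5 TPM at 20 months, against 52.8, 46.0 and 59.2 TPM at 18 months. Of 11 pericyte and vascular smooth muscle genes 1 was higher, the potassium channel subunit Abcc9, which skeletal muscle also expresses and which had r = 0.88. Nerve and Schwann cell genes had 0 of 10 called by limma, with 6 higher and 2 lower at an unadjusted p under 0.05, and 6 higher with median-ratio scaling. Of 13 genes of senescence and secreted inflammatory factors 2 were lower, the lysosomal galactosidase Glb1 and Tnf, and 0 higher. Cdkn1a, the p21 inhibitor, had 8.28, 7.39 and 4.77 TPM at 20 months, against 5.08, 4.76 and 7.17 TPM at 18 months (limma adjusted p = 0.733).

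Remaining lists gave few calls. Of 15 immediate early genes Nr4a1, an orphan nuclear receptor, was higher with 11.3, 8.72 and 13.2 TPM at 20 months, against 4.25, 5.02 and 2.61 TPM at 18 months (limma adjusted p = 0.0171), and Egr1 and Btg2 were lower. Of 17 cholesterol synthesis genes Sqle was lower, with 5.24, 5.62 and 3.31 TPM at 20 months, against 12.5, 11.3 and 7.88 TPM at 18 months (limma adjusted p = 0.0197). The lists of circadian clock (15 tested), glucocorticoid-induced (12), skin and hair (5) and erythroid genes (5) had 0 called by limma, and at an unadjusted p under 0.05 the counts were 3, 1, 0 and 0.

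Common reference genes were among those that moved. Gapdh, the glycolytic enzyme, had 365, 358 and 505 TPM at 20 months, against 155, 195 and 97.7 TPM at 18 months, a change of 1.49 ± 0.38 (MR 1.75, limma adjusted p = 0.0246), with r = 0.91. Actb had 837, 739.6 and 526 TPM at 20 months, against 1283, 1112 and 1127 TPM at 18 months, and did not pass (limma adjusted p = 0.0731). Of 12 such genes 2 were higher, Gapdh and Pgk1, and 3 lower, Ywhaz, Gusb and B2m, and with median-ratio scaling 2 were higher and 0 lower.

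**Figure D5:**
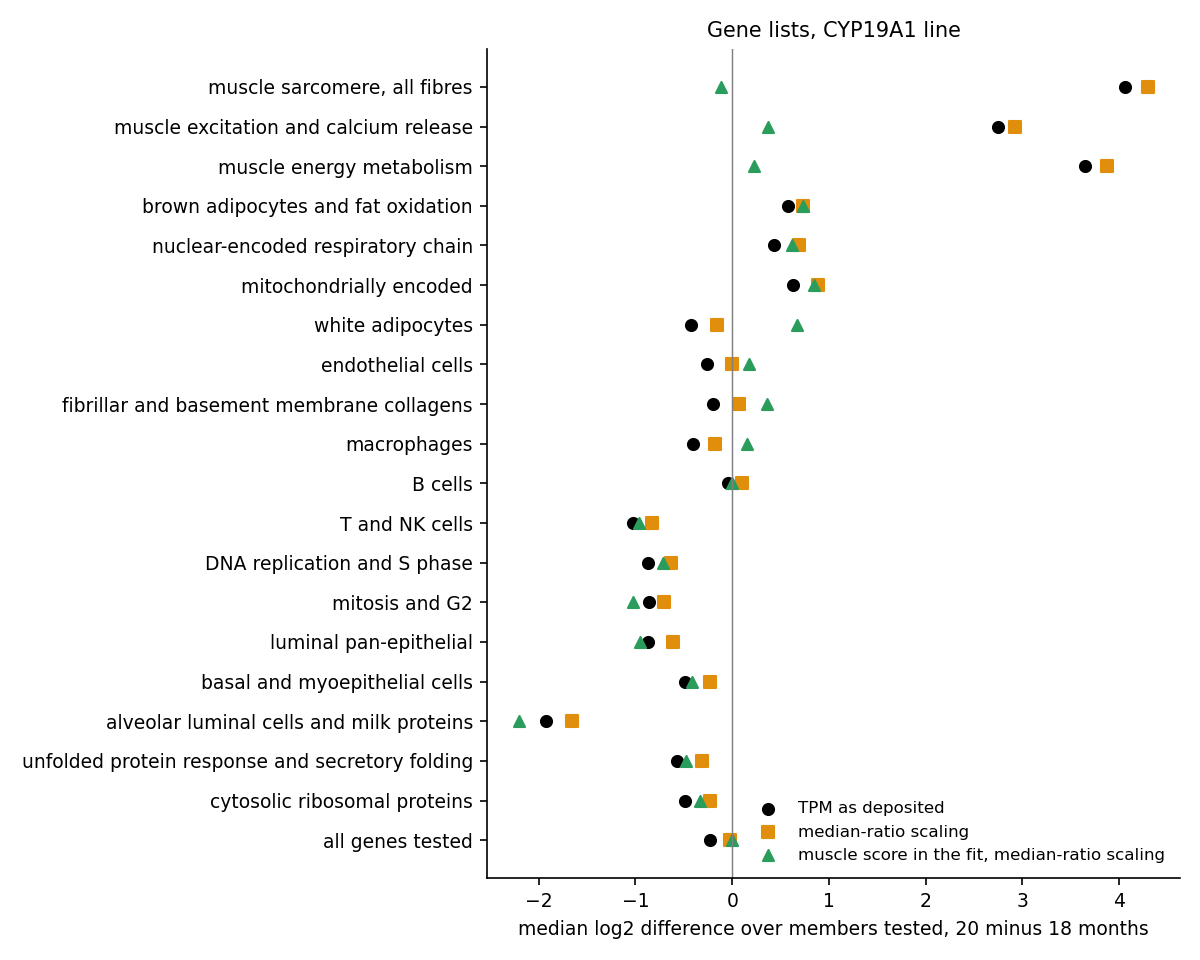
Median difference between 20 and 18 months on the log2 scale over the tested members of 19 gene lists and over all genes tested, on the deposited scale (black), with median-ratio scaling (orange) and with the muscle score in the fit and median-ratio scaling (green). The sarcomere, excitation and energy lists lie between 2.75 and 4.30 on the first 2 scales and between -0.11 and 0.37 with the muscle score, while the T cell, replication, mitosis and alveolar lists lie below all genes on each scale. The sarcomere genes make up the score, so the green point of that list tests nothing.

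The same ages were also compared in the Esr1 line, which carries MMTV-rtTA/tet-op-Esr1. There 0 genes were higher and 1 lower by limma (0.00517% of those tested), with 1214 genes at an unadjusted p under 0.05, against 5666 in the CYP19A1 line. In the Esr1 line, 20-month replicate 2 had 17.38% of its TPM in ribosomal RNA other than mitochondrial. Replicates 1 and 3 of that group had 0.015 and 2.02%. The part of this library in the Esr1 counts was not tested. A call in one line and not in the other shows no difference, so the difference of the age effects was tested itself. It gave 1 gene (0.00517%), with 1652 at an unadjusted p under 0.05. That gene was Gstp-ps, annotated as a pseudogene of a glutathione transferase, with 9.78, 9.96 and 14.8 TPM at 20 months, against 3.51, 2.81 and 2.72 TPM at 18 months in the CYP19A1 line. In the Esr1 line it had 1.21, 0.26 and 1.11 TPM at 20 months, against 0.90, 1.52 and 1.02 TPM at 18 months. The difference of the differences was 1.86 ± 0.28 (limma adjusted p = 0.0311). With a pseudocount of 0.1, 0 genes passed this test in limma. The same held without 20-month replicate 2 or 3, or 18-month replicate 1 or 2, of the CYP19A1 line. Without 20-month replicate 2 of the Esr1 line 1 gene passed. Reads shared with near-identical genes make the level of Gstp-ps uncertain.

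The T cell and replication genes that ranked next did not pass. Cd3d averaged 0.92 ± 0.07 TPM at 20 months and 3.24 ± 1.43 TPM at 18 months in the CYP19A1 line, and 3.13 ± 0.44 TPM at 20 months and 2.25 ± 0.22 TPM at 18 months in the Esr1 line (SD, n = 3 each, a description). The difference of the differences was -1.43 ± 0.34 (limma adjusted p = 0.384). For Hells, a chromatin remodeller of dividing cells, it was -1.78 ± 0.41, and for Ccl5 -2.09 ± 0.49, with the same adjusted p of 0.384.

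With the muscle covariate and median-ratio scaling, a setting added after the data were seen, 6 genes differed between the lines. Calca was lower at 20 months in the CYP19A1 line relative to the Esr1 line by a difference of -6.10 ± 0.98, and Tnfsf11 by -3.50 ± 0.57 (limma adjusted p = 0.0371 for each). On the deposited scale without the covariate these were -4.91 ± 1.35 and -2.77 ± 0.79 and did not pass (limma adjusted p = 0.44 for each). In the Esr1 line Calca ranged from 13.6 to 50.1 TPM at 20 months and from 6.74 to 32.8 TPM at 18 months. Tnfsf11 ranged from 2.19 to 7.55 TPM at 20 months and from 1.38 to 6.36 TPM at 18 months there. In the 12 libraries given tamoxifen or letrozole, across both lines, Calca lay between 0.28 and 2.79 TPM and Tnfsf11 between 0 and 0.22 TPM, so the 20-month CYP19A1 mice without either drug had levels in that range. Hspb2 differed by 1.39 ± 0.22 (limma adjusted p = 0.0371), and the other genes were Ly6i, Gstp-ps and the clone AC157910.6.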

How the data were processed

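RNA-seq was done on 24 mammary gland samples, 3 in each of 8 groups, and this comparison takes 6 of them. Per the submitters' processing notes, the build was mm10 and the tools were RSEM 1.3.1, STAR 2.7.9a, FastQC 0.11.9 and Trim Galore 0.6.5. Per the labels' protocols, libraries were stranded, rRNA-depleted and random-primed. The authors deposited 1 table of TPM values for 55487 genes, to 2 decimals. Sequencing depth cannot be recovered from TPM and is unknown, so no counting interval is given. Because the TPM of a library sum to a fixed total, a rise in abundant RNAs lowers the values of all others.

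Genes with at least 1 TPM in 3 of the 24 libraries were tested on log2(TPM + 1), a scale that understates changes of low genes. The fit was limma 3.58.1 in R 4.3.3 on all 24 libraries in 8 groups, with a trended and robust prior, two-sided tests and Benjamini-Hochberg adjustment over all 19325 genes, and was tested on simulated data. The p-values rest on the spread between the 3 samples within a group, shared over all 8 groups. They do not measure the spread of the compared groups alone. Alternatives were median-ratio scaling over 17645 genes, rescaling without the 12 most abundant genes or 550 muscle genes, a pseudocount of 0.1, other filters, fewer libraries, a replicate block, covariates, and leaving out each library. A covariate together with median-ratio scaling was added after the data were seen. Coordinates and promoters came from RefSeq tables, where 38312 genes matched by symbol.

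Named genes were members of 43 lists, of which 593 of 644 entries were tested, together with the largest called changes without overlap between groups in each fit and the smallest p between lines, predicted genes and pseudogenes left out. The members and lists were chosen with earlier results of these data known.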

Additional observations from a re-analysis of the deposited data

Results flagged for a closer look

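One result stood out because the age effect differed between the lines in a direct test. For Gstp-ps, a processed pseudogene named for glutathione transferase pi, the 20 minus 18 months difference in the CYP19A1 line exceeded that in the Esr1 line by 1.863 on the log2 scale (SE 0.28, limma adjusted p = 0.0311). All 3 CYP19A1 libraries at 20 months, at 9.78, 9.96 and 14.83 TPM, were above the 3 at 18 months, at 3.51, 2.81 and 2.72 TPM. The Esr1 libraries at 20 months had 1.21, 0.26 and 1.11 TPM, against 0.90, 1.52 and 1.02 TPM at 18 months, with overlapping groups. The call was lost with a pseudocount of 0.1, with the replicate block, and without 20-month replicate 2, 20-month replicate 3, 18-month replicate 1 or 18-month replicate 2 of the CYP19A1 line, where limma called 0 genes in this test. Reads shared with near-identical genes could be counted here, and their part was not tested.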

How the results depend on the processing

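Counts of called genes depended strongly on the processing, and the cause was not tested unless named. Against 581 higher and 1246 lower genes, median-ratio scaling gave 1374 and 386, rescaling without the most abundant genes gave 1056 higher, rescaling without muscle genes gave 123 and 253, and no filter gave 385 and 706. A fit of the 6 libraries alone, with fewer samples to estimate the spread, gave 105 and 58. Without Esr1_20m replicate 2, the library with 17.38% ribosomal RNA, 845 were higher and 2190 lower. The muscle covariate gave 156 and 4529, a muscle slope from the other 18 libraries gave 245 and 10287, that slope with median-ratio scaling gave 2022 and 2015, and the covariate with median-ratio scaling gave 219 and 244. Median-ratio scaling without 18-month replicate 3 gave 1161 and 756, and without 20-month replicate 3 it gave 553 and 48. Leaving out each of the 6 libraries gave 2 to 438 higher and 0 to 1963 lower. With the muscle covariate in the fit, rescaling without the most abundant genes gave 253 higher and 783 lower, rescaling without muscle genes 69 higher, a pseudocount of 0.1 gave 82 higher, leaving out Esr1_20m replicate 2 gave 398 higher, median-ratio scaling gave 244 lower and the 6 libraries alone gave 784 lower. Leaving out each of the 6 libraries gave 18 to 205 higher and 1164 to 5470 lower there. For the difference between the lines, against 1 gene, median-ratio scaling gave 5, rescaling without the most abundant genes 2, a pseudocount of 0.1 gave 0, no filter gave 8, and leaving out each of the 6 libraries gave 0 to 47, the 47 without 18-month replicate 3. Of 142 named genes called on the deposited scale, 0 kept their call in all 6 of these leave-outs. One gene reversed: Btg2 had 0.23 with the muscle covariate and median-ratio scaling, against -0.62 on the deposited scale. Libraries with the same replicate number had correlations of their deviations of 0.11, -0.04 and 0.01, and other pairs lay between -0.13 and 0.09. With 3 libraries per group this cannot show whether the samples were paired. A replicate block gave 464 higher and 872 lower, and 0 between the lines. No depth can be read from TPM, so detection limits are unknown.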

Other observations

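The following genes were chosen after their values were seen, and no test over them as groups was made. Most histone genes tested were lower at 20 months. Of 61 tested in the Hist1 to Hist4 clusters, 46 were lower and 0 higher by limma, with a median of -1.32, or -1.09 with median-ratio scaling and -1.40 with the muscle covariate added. Of all genes tested 6.45% were lower, and the medians in those settings were -0.23, -0.02 and -0.004. The summed level of the histone genes was 637.9, 642.8 and 504.9 TPM at 20 months, against 1722, 1440 and 864 TPM at 18 months. Every 20-month library was thus below every 18-month library, as in 33.8% of all genes tested. Hist1h2ab, a core histone H2A gene, had 4.92, 4.58 and 3.75 TPM at 20 months, against 27.9, 22.4 and 11.3 TPM at 18 months (log2 difference -1.91 ± 0.36, MR -1.66, limma adjusted p = 0.0124). With median-ratio scaling 35 were lower and with that and the covariate 18, against 2% and 1.26% of all genes tested. Leaving out each library gave 0 to 50, the 0 without 20-month replicate 3 and 2 without 18-month replicate 1. Histone genes are near-identical in sequence, so the split of reads among them is uncertain.

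Of genes known for MHC class I presentation, 4 that were lower are given as examples, with no list or count behind them. B2m, the class I light chain, was lower on the deposited scale but lost its call with median-ratio scaling. The peptide transporter Tap1 had 13.4, 10.7 and 7.85 TPM at 20 months, against 46.0, 27.2 and 20.1 TPM at 18 months (log2 difference -1.41 ± 0.31, MR -1.15, limma adjusted p = 0.016). The immunoproteasome subunits Psmb8 and Psmb9 changed by -1.37 ± 0.28 and -1.28 ± 0.22 (limma adjusted p = 0.0143 and 0.00971). The class I heavy chain H2-K1 had 385, 308 and 209 TPM at 20 months, against 1009, 707 and 547 TPM at 18 months (log2 difference -1.32 ± 0.29, limma adjusted p = 0.0155); class I genes resemble each other, so this level is uncertain. With the muscle covariate and median-ratio scaling Tap1, Psmb8, Psmb9 and H2-K1 differed by -1.48, -1.38, -1.14 and -1.23, with limma adjusted p between 0.0267 and 0.0459.

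A few genes that were not muscle-linked, meaning only that r was under 0.8, were higher and stayed so in that fit. Serpinb6a, an intracellular protease inhibitor, had 226, 223 and 271 TPM at 20 months, against 91.0, 60.8 and 72.3 TPM at 18 months (log2 difference 1.68 ± 0.31, MR 1.95, limma adjusted p = 0.0105). Ccng1, cyclin G1, a p53 target, had 144, 138 and 191 TPM at 20 months, against 53.3, 66.9 and 40.7 TPM at 18 months, and the alarmin cytokine Il33 had 14.9, 14.0 and 8.90 TPM at 20 months, against 3.74, 3.11 and 3.74 TPM at 18 months (limma adjusted p = 0.00971 and 0.0143). Their libraries did not overlap between the ages, and with the covariate and median-ratio scaling the differences were 1.74 ± 0.28, 1.54 ± 0.28 and 1.65 ± 0.33. Ccng1 ranked the 6 libraries in the same order as the muscle score did. The part of muscle content in these rises was not tested.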
